A study of Mus musculus with 54 samples.

Results

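The genes described here are 8 regulators of G protein signalling, Rgs1, Rgs2, Rgs3, Rgs10, Rgs14, Rgs16, Rgs18 and Rgs19, together with Rasd1, a Ras-like modulator of G proteins. They are 9 of the 24421 genes in the count table and were picked by name. Rasd1 was picked because dmPGE2 induced it, and the others were picked with the response of irradiated cells at 1 h known. The values of that contrast, and those of Rasd1 under dmPGE2, are therefore given as descriptions without a test. The measured material was RNA of hematopoietic stem cells (HSC) sorted from the marrow of mice with a C57BL/6 background, 1 mouse per library. The mice carry the Fgd5 reporter, which makes HSC fluoresce with ZsGreen, and the sort used SLAM and LSK surface markers together with that fluorescence. dmPGE2 is a dimethyl derivative of prostaglandin E2 that is broken down slowly. It or its ethanol vehicle was injected under the skin 30 min before 8.53 Gy, a dose lethal to 50% of animals. The stated dose of 35 µg and the stated 3.5 µL of a 0.1 mg/ml solution, which would hold 0.35 µg, do not match, so the dose is uncertain.

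Irradiated mice had received dmPGE2 or vehicle and were examined at 1 h or 24 h, with 8 libraries in each of these 4 groups. Mice without radiation received dmPGE2 (7 libraries at 1 h) or vehicle (15 libraries). The 15 non-irradiated vehicle libraries form a single baseline, because their columns name no time. The labels give 8 such mice at 1 h and 7 at 24 h, so time since the injection cannot be told apart in that baseline. All groups share the reporter, the injection and the solvent. By the labels each group holds male and female mice. Only the columns that name 24 h also name a sex, so the other libraries could not be matched to one. The main comparisons are not adjusted for sex. The baseline enters 3 of the comparisons below, which are therefore not independent of each other.

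Receptors coupled to G proteins act by loading GTP onto a G alpha subunit, and RGS proteins end the signal by speeding up the hydrolysis of that GTP. Most RGS proteins act on the Gi and Gq families, and Gi carries the signal of chemokine receptors such as Cxcr4, which holds HSC in the marrow. Prostaglandin E2 raises cAMP through the Gs-coupled receptors EP2 and EP4, and Rgs2 is a known target of cAMP signalling in several cell types.

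Upstream sequence is shown for Rgs2 and Rgs16, whose levels after dmPGE2 in irradiated HSC at 1 h lay on opposite sides of vehicle. Each sequence is the 250 bases before the RefSeq start on the gene's own strand in build GRCm38.p6. Rgs2 is read from chr1:144004150-144004399 on the minus strand and Rgs16 from chr1:153740103-153740352 on the plus strand. Capitals mark TGACG or its reverse complement CGTCA, the short form of the cAMP response element that CREB proteins bind.
Rgs2: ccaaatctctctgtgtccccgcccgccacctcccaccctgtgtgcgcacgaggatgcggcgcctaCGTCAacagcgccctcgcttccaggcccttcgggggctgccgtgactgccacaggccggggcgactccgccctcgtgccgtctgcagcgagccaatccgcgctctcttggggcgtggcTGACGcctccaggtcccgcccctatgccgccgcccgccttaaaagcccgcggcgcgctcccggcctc
Rgs16: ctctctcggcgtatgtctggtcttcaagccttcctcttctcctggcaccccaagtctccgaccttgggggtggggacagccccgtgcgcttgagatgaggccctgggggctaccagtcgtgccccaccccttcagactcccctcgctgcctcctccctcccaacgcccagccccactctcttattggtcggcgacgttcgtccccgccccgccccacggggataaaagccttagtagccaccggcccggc
The Rgs2 window held 2 short elements, CGTCA starting 185 bases and TGACG starting 67 bases before the start, and the 2 do not overlap. The Rgs16 window held 0. On either strand, the short element stood in 17.8% of 32851 RefSeq windows of this length and the full element TGACGTCA, which contains it, in 1.55%. Of the 9 genes, 5 had an entry, and the windows of Rgs3, Rgs10 and Rgs19 held 0 short elements. Rgs1, Rgs14, Rgs18 and Rasd1 had no entry. A match describes letters only, and binding was not measured.

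Total counts ran from 15049364 to 26217041 reads per library. All 12 HSC markers examined (among them Fgd5, Slamf1, Kit, Procr and Hlf) were detected in every group, and their summed level ran from 2926 to 6179 CPM (reads scaled to the library total) over the 54 libraries. Summed neutrophil markers ran from 9.33 to 1422.5 CPM. At 24 h, libraries 5, 6 and 7 of the irradiated dmPGE2 group stood apart from the other 5 on the second principal component (-71.7, -39.3 and -47.3, against -22.4 to 1.4). For the 9 genes described, results that rest on these 3 libraries are given with and without them. Single calls of other genes with dmPGE2 at 24 h were not examined without them. In bulk RNA, fewer cells of a type and less RNA per cell cannot be told apart.

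On a scale corrected for exon length, Rgs18 was the most abundant of the 9 genes in each of the 6 groups. Rgs18, a small RGS protein prominent in platelets and megakaryocytes, had a level of 188 ± 31.4 CPM per kb of exon in the baseline (SD, n = 15). Rgs1, which dampens chemokine responses of lymphocytes, followed with 67.7 ± 19.3 CPM per kb, and Rgs19, which acts on Gi and Gz, with 67.2 ± 8.59. Rgs14, an RGS protein with a Ras-binding region, had 16.8 ± 3.40 CPM per kb and Rgs2, which prefers Gq, had 13.7 ± 2.78. The levels of Rasd1 (2.998 ± 2.001), Rgs10 (2.69 ± 1.44) and Rgs3 (2.30 ± 0.46) were lower still, and their mean ± SD ranges overlapped. Rgs16, an RGS protein for Gi and Gq induced in activated lymphocytes, was lowest at 0.14 ± 0.15 CPM per kb. The order was not fixed: Rgs2 ranked above Rgs14 in both dmPGE2 groups at 1 h and below it in both vehicle groups that were irradiated.

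**Figure D1:**
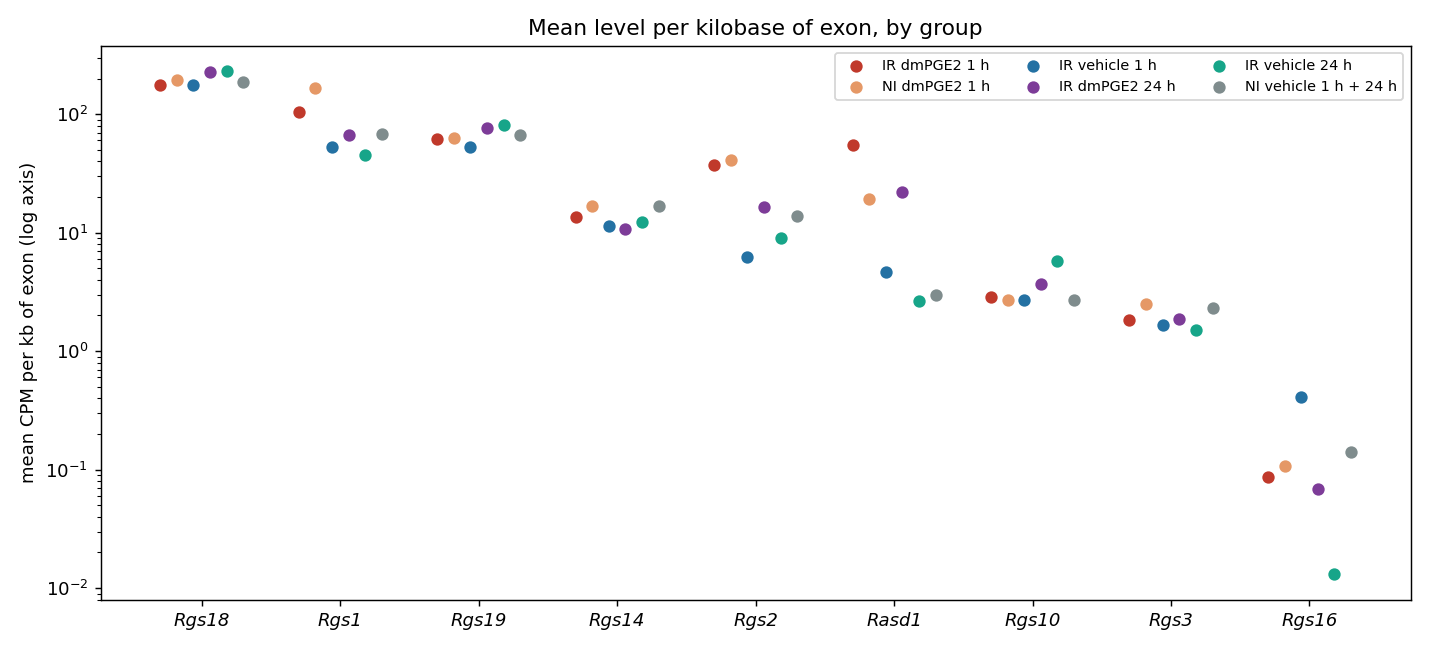
Mean level of each gene per kilobase of exon (CPM per kb, log axis) in the 6 groups, 1 point per group, with genes ordered by their baseline level. Rgs18 is highest and Rgs16 lowest in each group, and Rgs2 and Rasd1 move over a wide range.

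All 9 genes passed the filter on low counts. Rgs16 reached the filter's level of 0.448 CPM in 8 of 8 irradiated vehicle libraries at 1 h, but in 1 of 8 irradiated dmPGE2 libraries at 1 h, 2 of 7 non-irradiated dmPGE2 libraries and 4 of 15 baseline libraries. At 24 h it did so in 2 of 8 irradiated dmPGE2 libraries and 0 of 8 irradiated vehicle libraries. No other group held as many libraries at this level as the irradiated vehicle group at 1 h, where Rgs16 was highest. The annotated exons of the 8 RGS genes share no base with another gene's exons. Of 1609 exon bases of Rasd1, 126 overlap Med9 on the other strand, and the library kit keeps no strand.

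**Figure D2:**
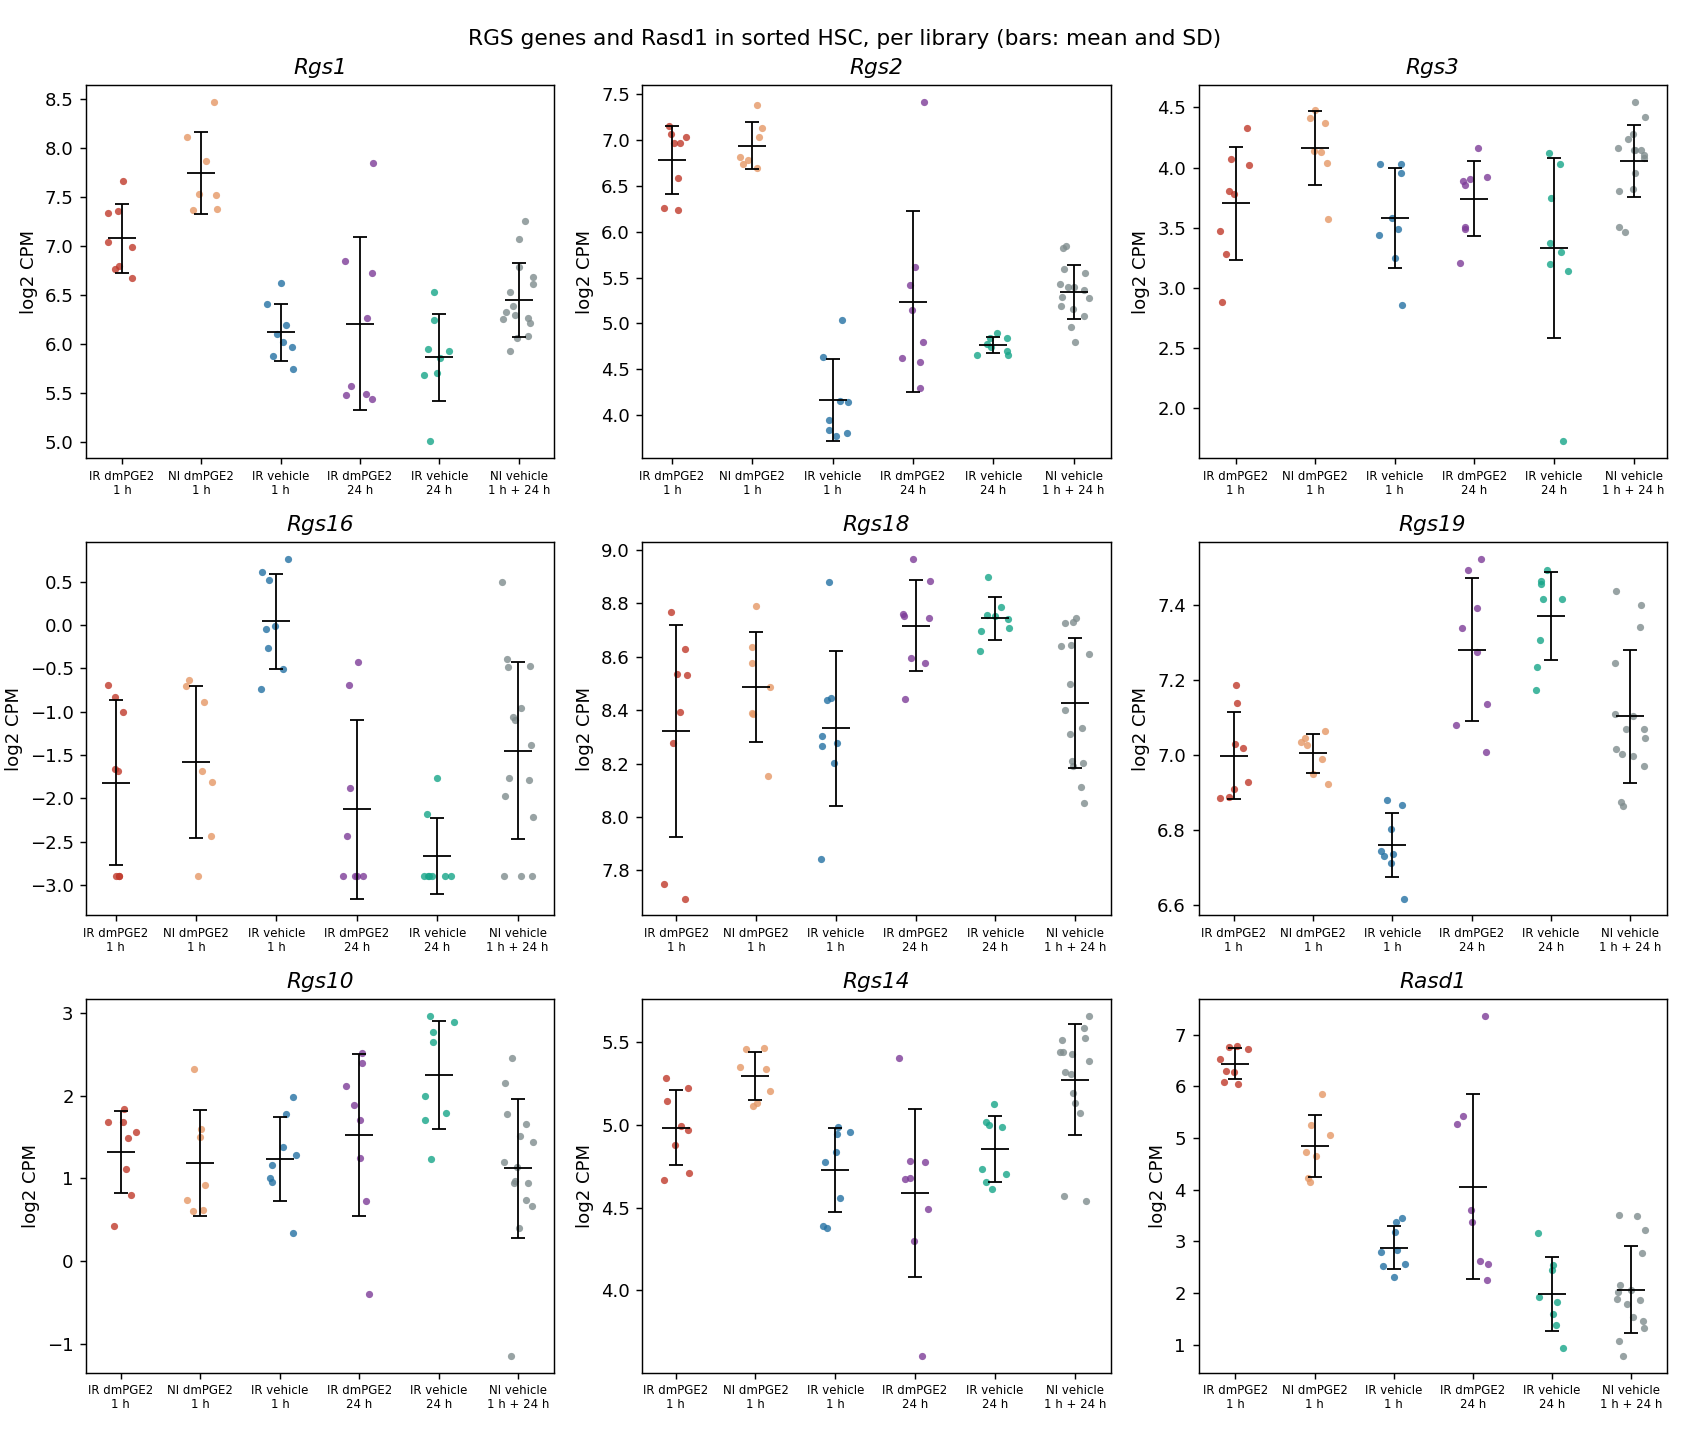
Level of the 9 genes (log2 CPM) in every library, by group, with the mean and SD as bars; IR is irradiated and NI not irradiated. Both dmPGE2 groups at 1 h lie above the other 1 h group and the baseline for Rgs2 and Rasd1, and the 24 h dmPGE2 group is widely spread for Rgs1, Rgs2 and Rasd1.

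The first comparison asks what dmPGE2 did to these genes in HSC that were not irradiated, at 1 h. Rgs1 and Rgs2 rose, and the other 6 RGS genes did not pass the test. Rgs2 had a lowest value of 103, a median of 113 and a highest of 167 CPM with dmPGE2, against 27.7, 41.1 and 57.1 CPM in the baseline. Every dmPGE2 library was above every baseline library. The log2 fold change was 1.59 (SE 0.22), with an adjusted p of 1.83e-07 in edgeR's quasi-likelihood test with Benjamini-Hochberg adjustment. Rgs1 had a lowest value of 165, a median of 184 and a highest of 353 CPM with dmPGE2, against 60.5, 80.2 and 152 CPM in the baseline. Here too the groups did not overlap, and the log2 fold change was 1.31 (SE 0.21, edgeR adjusted p = 6.89e-06).

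These were 2 of 8 RGS genes called higher, where 5.28% of the 14320 genes tested were called higher and 5.82% lower. The genes were picked with the dmPGE2 response of irradiated HSC at the same time known. Their share of calls is therefore not independent of that choice and cannot be weighed against the share of all genes. Ranges that did not overlap, with dmPGE2 higher, occurred in 1.49% of all genes. The remaining log2 fold changes ran from -0.34 for Rgs16 (SE 0.82) to 0.11 for Rgs3 (SE 0.19). Rgs18, the most abundant, was at 0.05 (SE 0.11) and Rgs19 at -0.11 (SE 0.07). The median of the 8 was 0.03, beside 0.01 over all genes. Of 44 tested markers of 8 other cell types, 0 were called here by edgeR and 0 by DESeq2, and 1 had an unadjusted p below 0.05. Against the 7 baseline libraries with the higher S numbers alone (a subset explained below), Rgs19 passed as lower (-0.22, edgeR adjusted p = 0.0394).

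**Figure D3:**
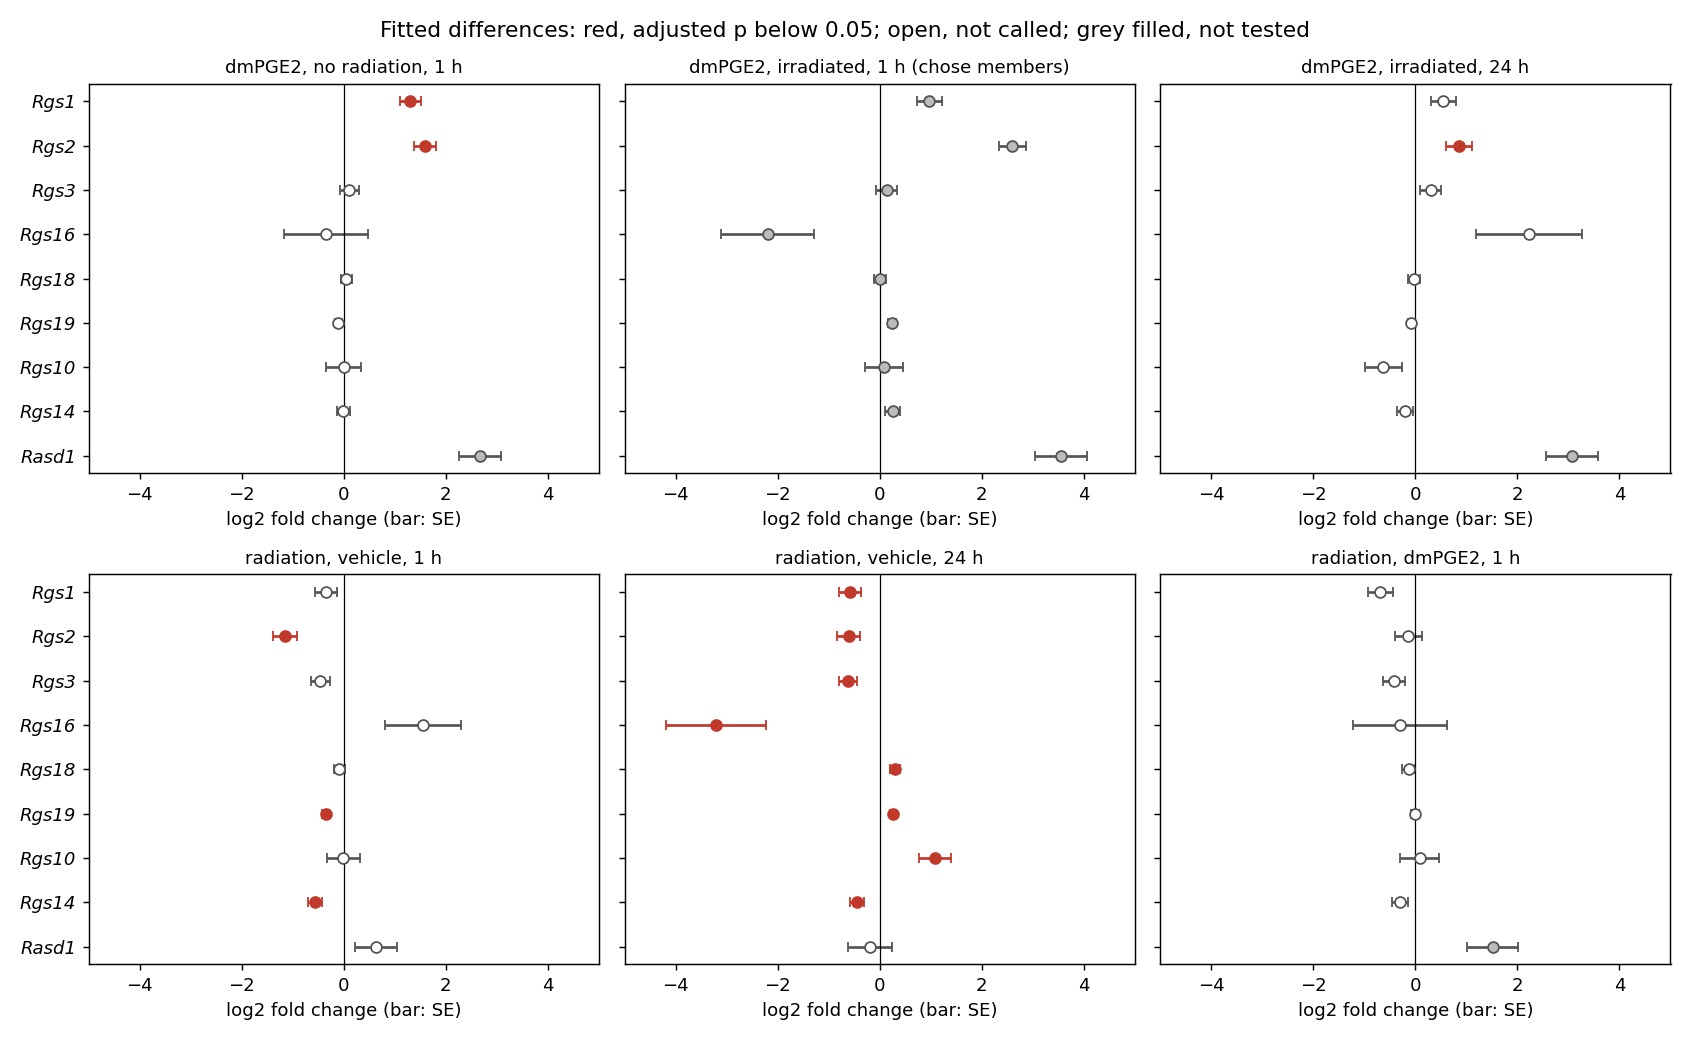
Fitted log2 fold change of each gene (x axis, with SE bars) in 6 comparisons. Filled red points have an edgeR adjusted p below 0.05, open points do not, and grey points were not tested because the gene or the contrast served to choose the genes, or for Rasd1 its dmPGE2 libraries did. Rgs1 and Rgs2 stand to the right without radiation, and all 8 RGS genes are red at 24 h after radiation with vehicle.

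In irradiated HSC at 1 h, dmPGE2 was set against vehicle by the contrast that served to choose the genes. Rgs2 had a lowest value of 75.2, a median of 125 and a highest of 142 CPM with dmPGE2, against 13.5, 16.4 and 32.7 CPM with vehicle. The fitted log2 difference was 2.60 (SE 0.27), and the groups did not overlap. Rgs1 had 102, 129 and 202 CPM as lowest, median and highest with dmPGE2, against 53.4, 66.5 and 98.4 CPM with vehicle, a log2 difference of 0.97 (SE 0.24). Rgs19 also had no overlap, by a small margin, with 118.1 CPM as the lowest dmPGE2 library against 117.6 CPM as the highest vehicle library (log2 difference 0.24, SE 0.07).

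Rgs16 lay on the other side. It had 0 to 11 reads per library and 37 in all with dmPGE2, against 10 to 32 reads and 173 in all with vehicle (log2 difference -2.20, SE 0.91). Rgs3, Rgs10, Rgs14 and Rgs18 differed by 0.14, 0.08, 0.25 and 0.01 on the log2 scale, and their groups overlapped. With Rasd1, 4 of the 9 genes had dmPGE2 libraries all above vehicle, as 1.68% of all genes did. The genes were picked with this contrast known, so the count cannot be weighed against that share. The difference between the dmPGE2 response with and without radiation was 1.01 for Rgs2 (SE 0.34), 0.35 for Rgs19 (SE 0.10), -0.34 for Rgs1 (SE 0.33) and -1.85 for Rgs16 (SE 1.20). It contains the same contrast, so no test is given.

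Radiation with vehicle, at 1 h, was compared with the baseline. The irradiated vehicle libraries are also in the contrast that chose the genes. Neither the calls nor their share among the RGS genes is independent of that choice. Rgs2, Rgs14 and Rgs19 fell. Rgs2 had a lowest value of 13.5, a median of 16.4 and a highest of 32.7 CPM after radiation, against 27.7, 41.1 and 57.1 CPM in the baseline. The ranges met only between 27.7 and 32.7 CPM, and the log2 fold change was -1.14 (SE 0.23, edgeR adjusted p = 0.000191). Rgs14 had 20.6, 27.8 and 31.6 CPM as lowest, median and highest after radiation, against 23.2, 41.6 and 50.4 CPM in the baseline (log2 fold change -0.56, SE 0.13, edgeR adjusted p = 0.0014). Rgs19 had 98.002, 107 and 117.6 CPM after radiation, against 116.3, 134 and 173 CPM in the baseline. Its ranges overlapped by little more than 1 CPM, and its log2 fold change was -0.35 (SE 0.07, edgeR adjusted p = 4.50e-05).

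These 3 of 8 RGS genes were called lower, where 7.31% of all genes were called lower and 8.65% higher. Rgs16 had 10 to 32 reads per library after radiation, against 0 to 20 in the baseline. Its log2 fold change of 1.55 (SE 0.74) did not pass (edgeR adjusted p = 0.155). Rgs3 was at -0.46 (SE 0.18, edgeR adjusted p = 0.0814), which passed with only the 2 groups in the fit (edgeR adjusted p = 0.026), and Rgs1 was at -0.35 (SE 0.21). Rgs10 and Rgs18 were at -0.01 and -0.09. The median of the 8 was -0.35, beside -0.003 over all genes. The 15 baseline libraries carry S numbers in 2 sets, of 8 and of 7 libraries. The lower-numbered 8 stand among the 1 h libraries in these numbers and the other 7 just before the 24 h libraries, and the sizes equal those the labels give for 1 h and 24 h. No name states a time, so neither set was assigned to one. Rgs19 averaged 127 ± 7.57 CPM in the lower-numbered set and 151 ± 17.6 CPM in the other (SD, n = 8 and 7), and its fall passed against either set alone.

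Radiation at 1 h was also compared between mice that had all received dmPGE2. Among the 8 RGS genes, 0 were called by edgeR and 0 by DESeq2, and 1 had an unadjusted p below 0.05, where 0.377% of all genes were called. That gene was Rgs1, with 102, 129 and 202 CPM as lowest, median and highest after radiation, against 165, 184 and 353 CPM without (log2 fold change -0.69, SE 0.25, edgeR adjusted p = 0.555). Rgs2 had lowest, median and highest values of 75.2, 125 and 142 CPM after radiation, against 103, 113 and 167 CPM without, and the groups overlapped (-0.14, SE 0.26). Rgs19 was at 0.00 (SE 0.08) and Rgs14 at -0.30 (SE 0.15). This comparison shares the irradiated dmPGE2 libraries with the contrast that chose the genes. The difference from the radiation response under vehicle is the quantity given above as the difference between dmPGE2 responses, 1.01 for Rgs2 and 0.35 for Rgs19, and has no test.

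By 24 h after radiation with vehicle, all 8 RGS genes passed the test against the baseline, 5 lower and 3 higher. The irradiated libraries share no tag in their column names (such as 6-16) with the baseline libraries (such as 5-1). Radiation cannot be told apart here from whatever these tags stand for. The background was high: 49.7% of all genes were called, 26.5% lower and 23.3% higher. Rgs1, Rgs2, Rgs3, Rgs14 and Rgs16 fell, and Rgs10, Rgs18 and Rgs19 rose. Rgs2 had a narrow range, with 25.1, 26.9 and 29.5 CPM as lowest, median and highest after radiation, against 27.7, 41.1 and 57.1 CPM in the baseline (log2 fold change -0.61, SE 0.23, edgeR adjusted p = 0.0221). Rgs1 had 32.0, 59.2 and 91.96 CPM after radiation, against 60.5, 80.2 and 152 CPM in the baseline (-0.58, SE 0.22, edgeR adjusted p = 0.0235). Both sets of ranges overlapped.

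Rgs3, whose protein acts on Gi and Gq, had 3.17, 9.98 and 17.2 CPM as lowest, median and highest after radiation, against 10.9, 17.5 and 23.2 CPM in the baseline (-0.62, SE 0.19, edgeR adjusted p = 0.00447). Rgs14 had 24.3, 29.0 and 34.8 CPM after radiation, against 23.2, 41.6 and 50.4 CPM in the baseline (-0.44, SE 0.13, edgeR adjusted p = 0.00451). Rgs16 had 5 reads over the 8 irradiated libraries, 6 of them at 0, against 106 reads over the 15 baseline libraries, 3 of them at 0. Its call (edgeR adjusted p = 0.00559) rests on these reads, and the fitted log2 fold change of -3.21 (SE 0.99) depends on the prior count. Rgs16 reached the filter's level in 0 of these 8 irradiated libraries and in 4 of the 15 baseline libraries. It is in the test mainly through the irradiated vehicle group at 1 h. With only the 2 groups in the fit, the filter did not keep Rgs16, and 7 RGS genes passed.

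In the other direction, Rgs10, a short RGS protein active on Gi, had 2.21, 4.996 and 7.64 CPM as lowest, median and highest after radiation, against 0.319, 2.07 and 5.33 CPM in the baseline. Its log2 fold change was 1.09 (SE 0.31, edgeR adjusted p = 0.00285). Rgs18 had 394, 429 and 477 CPM after radiation, against 266, 338 and 429 CPM in the baseline (0.30, SE 0.10, edgeR adjusted p = 0.0141). Rgs19 had 144, 171 and 180.1 CPM after radiation, against 116.3, 134 and 173 CPM in the baseline (0.26, SE 0.06, edgeR adjusted p = 0.000586). At 1 h Rgs19 had been lower than the baseline. Megakaryocyte markers, of a cell type that also carries Rgs18, moved in the same comparison: 4 of 7 were higher and 0 lower. Their summed level was 870.2 to 1821 CPM after radiation, against 444 to 782 CPM in the baseline, with none at 0 in every library. Of the 12 HSC markers, 10 were lower and 1 higher. Over the 8 lists of other cell types, 7 of 44 markers were higher and 18 lower. The lower ones included 5 of 5 mast cell, 3 of 3 erythroid, 4 of 5 endothelial, 2 of 4 B cell, 2 of 6 monocyte and 2 of 8 neutrophil markers, and 2 of 6 T and NK cell markers were higher. The part of these markers in the results was not tested.

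The 24 h calls depend on which baseline libraries are used. Against the 8 lower-numbered ones 6 of the 8 RGS genes passed, with Rgs1 and Rgs2 lost (edgeR adjusted p = 0.0657 and 0.0813). Against the 7 higher-numbered ones 2 passed, Rgs3 and Rgs16, and the log2 fold changes of Rgs18 and Rgs19 were then 0.25 and 0.15 (edgeR adjusted p = 0.117 and 0.108). No direction changed. The median of the 8 was -0.51, beside -0.06 over all genes.

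At 24 h, dmPGE2 was set against vehicle in irradiated HSC. Rgs2 was the only RGS gene called (1 of 8), where 12.4% of all genes were called higher and 11.5% lower, and that call rests on 3 libraries. Rgs2 had 19.5 CPM in the lowest, 31.4 in the median and 171 in the highest dmPGE2 library, against 25.1, 26.9 and 29.5 CPM with vehicle. The 3 highest were library 5 (171 CPM), library 7 (49.02 CPM) and library 6 (42.8 CPM). The log2 fold change was 0.86 (SE 0.25, edgeR adjusted p = 0.00973). Without these 3 libraries, left out after their values were seen, it was -0.05 (edgeR adjusted p = 0.908). In a fit of the 2 groups alone it was 0.88 (edgeR adjusted p = 0.118).

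**Figure D4:**
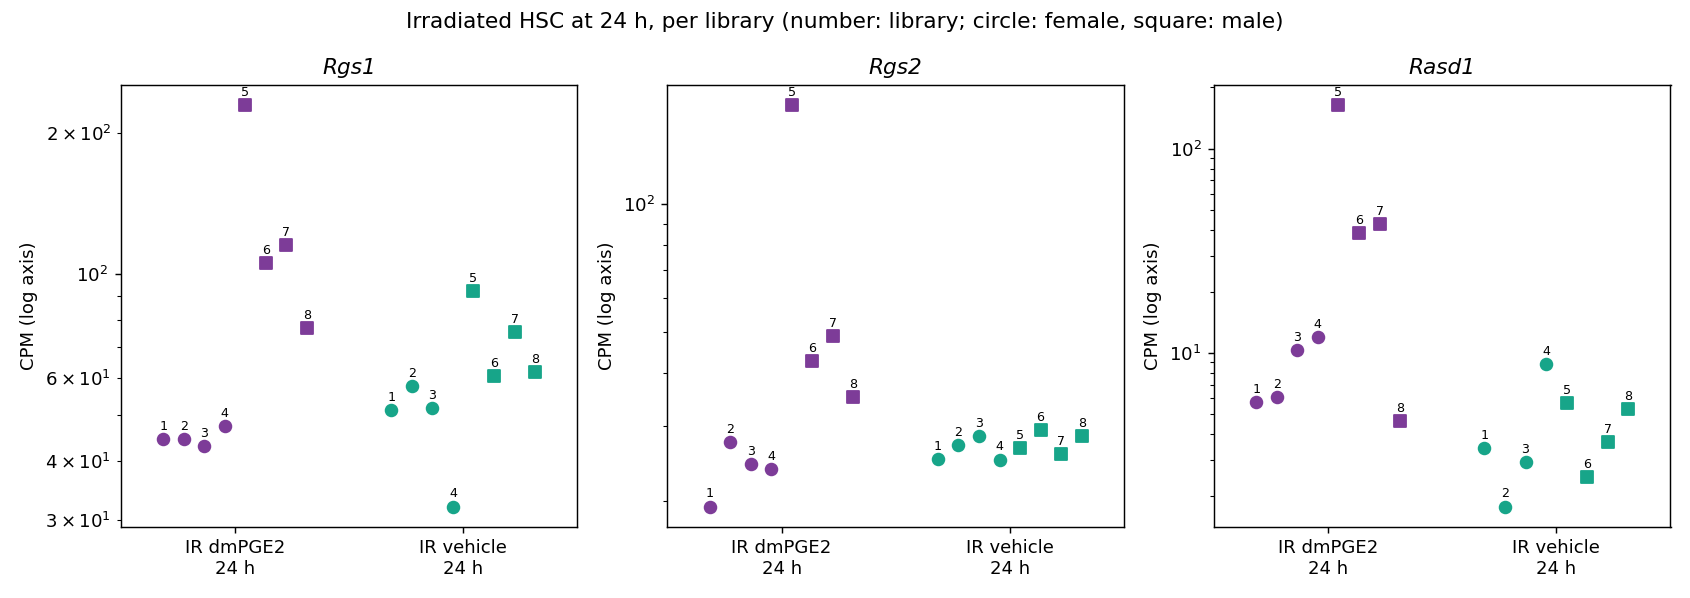
Rgs1, Rgs2 and Rasd1 (CPM, log axis) in each irradiated library at 24 h, with dmPGE2 left and vehicle right. Numbers are library numbers, circles are female and squares male mice. Libraries 5, 6 and 7 hold the 3 highest dmPGE2 values of each gene.

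Rgs1 followed the same libraries, with 229, 106 and 115 CPM in libraries 5, 6 and 7 and 43.1 to 76.9 CPM in the other 5, against 32.0 to 91.96 CPM with vehicle. Its log2 fold change of 0.55 (SE 0.24) did not pass (edgeR adjusted p = 0.0944). Without these 3 libraries it was -0.23 (edgeR adjusted p = 0.569). Libraries 5 to 8 come from male mice and 1 to 4 from female mice. In males Rgs1 had 76.9 to 229 CPM with dmPGE2, against 60.6 to 91.96 CPM with vehicle. In females it had 43.1 to 47.4 CPM with dmPGE2, against 32.0 to 57.8 CPM with vehicle. The male minus female difference in the dmPGE2 response, examined after the values were seen, was 0.95 for Rgs1 (SE 0.36, edgeR adjusted p = 0.342) and 1.57 for Rgs2 (SE 0.50, edgeR adjusted p = 0.288). Neither passed. Summed HSC markers were 4566 to 5421.5 CPM in libraries 5, 6 and 7, against 3452 to 4265 CPM in the other 5 dmPGE2 libraries. Endothelial markers summed to 364 to 398 CPM in these 3, against 239 to 327 CPM in the other 5, and T and NK cell markers to 38.2 to 68.4 CPM, against 65.1 to 112 CPM. Whether this bears on the Rgs values was not tested.

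Of the other members at 24 h, Rgs16 had 26 reads over 8 dmPGE2 libraries, against 5 over 8 vehicle libraries (edgeR adjusted p = 0.116). Rgs10 was at -0.63 (SE 0.37), Rgs3 at 0.30 (SE 0.21), Rgs14 at -0.20 (SE 0.15), Rgs19 at -0.08 (SE 0.07) and Rgs18 at -0.02 (SE 0.12). None of these passed. Among markers of other cells, 9 of 44 were higher and 6 lower. Of the monocyte markers 4 of 6 were higher, among them F13a1 (5.95, SE 1.02) and Cd14 (3.06, SE 0.54), and of the neutrophil markers 2 of 8, S100a9 (3.47, SE 0.93) and S100a8 (3.26, SE 0.92). Summed monocyte markers nevertheless overlapped, at 525 to 775 CPM with dmPGE2, against 598 to 817 CPM with vehicle. Summed neutrophil markers overlapped too, at 10.6 to 628 CPM with dmPGE2, against 9.74 to 434 CPM with vehicle. Of the megakaryocyte markers 5 of 7 were lower, at a summed 278 to 995 CPM with dmPGE2, against 870.2 to 1821 CPM with vehicle. Rgs18 itself had 348 to 500.0 CPM with dmPGE2, against 394 to 477 CPM with vehicle, and these ranges overlapped.

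Rasd1, first found as a gene induced by glucocorticoid, encodes a protein that can activate Gi without a receptor. Since it was picked as induced by dmPGE2, its dmPGE2 values are descriptions. Without radiation it had 17.6, 26.4 and 57.8 CPM as lowest, median and highest with dmPGE2, against 1.59, 3.58 and 11.3 CPM in the baseline (log2 difference 2.68, SE 0.41). In irradiated HSC at 1 h it had 66.4, 85.3 and 110.0 CPM with dmPGE2, against 4.82, 6.92 and 10.8 CPM with vehicle (3.55, SE 0.51). The groups did not overlap in either case. At 24 h it had 4.62, 11.2 and 164 CPM with dmPGE2, against 1.77, 3.54 and 8.82 CPM with vehicle (3.06, SE 0.51), and the ranges overlapped. Libraries 5, 6 and 7 held 164, 38.7 and 42.8 CPM, and without them the log2 difference was 0.87.

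Radiation with vehicle left Rasd1 without a call at 1 h (0.64, SE 0.41, edgeR adjusted p = 0.347) and at 24 h (-0.19, SE 0.43, edgeR adjusted p = 0.749). At 1 h it passed with a replicate block (0.815, edgeR adjusted p = 0.00509). The vehicle libraries were also known when Rasd1 was picked, so these tests are not independent of that choice. Under dmPGE2 every irradiated library lay above every non-irradiated one. The log2 difference was 1.51 (SE 0.49), with no test, since both groups hold the dmPGE2 libraries known when the gene was picked. Such separation was seen in 0.321% of all genes, a share that cannot be weighed against a gene picked for its dmPGE2 values.

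Over the 6 groups the order of levels differed between genes. Rgs2 was lowest in irradiated vehicle HSC at 1 h (18.6 ± 6.74 CPM, n = 8), then at 24 h with vehicle (27.0 ± 1.66, n = 8), and highest in non-irradiated HSC with dmPGE2 (124 ± 23.2, n = 7). Its 2 dmPGE2 groups at 1 h lay within 1 SD of each other and above the baseline without overlap. Rasd1 was highest in irradiated HSC with dmPGE2 at 1 h (88.3 ± 18.1 CPM, n = 8), above the next group without overlap (31.0 ± 13.9 with dmPGE2 and no radiation, n = 7). At 24 h irradiated HSC had 35.5 ± 54.1 CPM with dmPGE2, an SD above the mean (n = 8). Rgs19 was lowest in irradiated vehicle HSC at 1 h (108 ± 6.46 CPM, n = 8), below the next group without overlap. For Rgs1, Rgs3, Rgs10, Rgs14, Rgs16 and Rgs18 all groups next to each other in order overlapped.

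Rgs1, Rgs2 and Rgs18 lie in 1 stretch of chromosome 1. In mm10, Rgs2 spans chr1:143999338-144004149, Rgs1 chr1:144244669-144249104 and Rgs18 chr1:144752841-144775421. The stretch is 776 kb long, and Rgs13 and Rgs21 lie within it, with all 5 genes on the minus strand. Rgs13 and Rgs21 had 0 reads in all 54 libraries. The 3 detected neighbours had different calls. Rgs1 and Rgs2 rose with dmPGE2 and no radiation while Rgs18 was at 0.05, and at 24 h after radiation Rgs1 and Rgs2 fell while Rgs18 rose. These 24 h falls passed against the pooled baseline but against neither of its sets alone. The rise of Rgs18 passed alone only against the lower-numbered set. Rgs16 lies apart on chromosome 1 (chr1:153740353-153745468), and Rasd1 on chromosome 11 (chr11:59963181-59964942).

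The table holds 15 more genes with RGS names, of which 6 passed the filter. With dmPGE2 at 24 h 2 of the 6 were lower, where 11.5% of all genes were, and after radiation with vehicle at 24 h 2 were lower, where 26.5% were. Rgs12, a large RGS protein with a region that also binds inactive G alpha, had a median of 61.3 CPM and fell by 0.45 with dmPGE2 at 24 h (SE 0.12, edgeR adjusted p = 0.00469). Rgs7bp, a membrane anchor for RGS7-type proteins in nerve cells, fell by 0.63 at 24 h after radiation with vehicle (SE 0.20, edgeR adjusted p = 0.00834). In the 4 comparisons at 1 h, edgeR and DESeq2 each called 0 of the 6, and up to 1 per comparison had an unadjusted p below 0.05.

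Other genes of the pathway were read from lists. Of 13 tested G alpha genes, 1 fell with dmPGE2 without radiation (Gna11, a Gq family gene, -0.44, SE 0.12), where 5.82% of all genes fell. In irradiated HSC at 1 h, where dmPGE2 was called higher in 7.04% and lower in 7.77% of all genes, 1 rose and 2 fell. The 2 were Gna13 (-0.43, SE 0.10) and Gna15 (-0.36, SE 0.10), which both rose with radiation and vehicle at 1 h (0.54 and 0.48). Those 2 comparisons share the irradiated vehicle libraries. Of 11 G beta and gamma genes, 2 rose with dmPGE2 without radiation, Gng12 (0.28) and Gnb2 (0.27), where 5.28% of all genes rose. Of 7 receptor kinase and arrestin genes, 0 were called with dmPGE2 at 1 h by edgeR or DESeq2, without radiation (1 with an unadjusted p below 0.05) or with it (0), and 3 fell at 24 h after radiation with vehicle (26.5% of all genes). These were Adrbk2 (-1.03, SE 0.16), Arrb1 (-0.81, SE 0.13) and Adrbk1 (-0.44, SE 0.16). Of 7 other G protein modulators, 2 rose and 2 fell with dmPGE2 without radiation (5.28% and 5.82% of all genes). Ric8 and Ric8b, chaperones of G alpha, were at -0.31 and -0.40.

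Of 18 genes for prostaglandin E2 receptors and cAMP machinery, 2 rose and 2 fell with dmPGE2 without radiation, against the same shares of 5.28% and 5.82% of all genes. Ptger4, the gene of EP4, was lower with dmPGE2 at 1 h both without radiation (-0.38, SE 0.13) and with it (-0.88, SE 0.14), and higher at 24 h (0.71, SE 0.14). With radiation and vehicle it was higher than the baseline at 1 h (0.84, SE 0.12) and lower at 24 h (-0.76, SE 0.12). The dmPGE2 differences in irradiated HSC share these vehicle libraries. Of 12 tested targets of cAMP and CREB, 9 rose with dmPGE2 without radiation (5.28% of all genes), 8 in irradiated HSC at 1 h (7.04%) and 6 at 24 h (12.4%). Their medians were 2.43, 1.73 and 1.03 on the log2 scale. The list was chosen with earlier results of these data known, so these counts are not independent of that choice. At 24 h the targets were not examined without libraries 5, 6 and 7 of the dmPGE2 group. Nr4a1, Sik1 and Crem led without radiation, at 5.34 (SE 0.31), 4.10 (SE 0.27) and 3.69 (SE 0.40). Radiation with vehicle at 1 h, where Rgs2 fell, was accompanied by a rise of 8 of these 12 targets (8.65% of all genes), with Sik1 at 2.58 (SE 0.26) and Crem at 2.08 (SE 0.38).

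Of 11 Gi-coupled receptors of HSC, 1 rose and 3 fell with dmPGE2 without radiation, where 5.28% of all genes rose and 5.82% fell. S1pr1, a receptor for sphingosine phosphate that guides exit from tissues, rose by 1.10 (SE 0.19), and it rose by 2.23 (SE 0.23) in irradiated HSC at 1 h and by 1.36 (SE 0.22) at 24 h. It fell by 0.97 (SE 0.20) with radiation and vehicle at 1 h. Cxcr4 fell by 0.64 (SE 0.19) with dmPGE2 without radiation and by 0.70 (SE 0.18) at 24 h after radiation with vehicle.

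The genes nearest in pattern were found from mean log2 CPM over the 6 groups, centred per gene, by the root mean square difference among 10758 candidates. Rgs2, with a range of 2.78 on the log2 scale over the groups, was nearest to B3gnt7 (0.13), Nkx2-3 (0.18) and Gpr146 (0.20). Rgs1, with a range of 1.89, was nearest to Myct1 (0.22), Elmsan1 (0.23) and Dock3 (0.23). Rasd1 had the widest range, 4.46, and its nearest genes were more distant: Sgk1 (0.52), Crem (0.53) and Socs3 (0.55). Rgs16 was nearest to Ltb (0.17), Zbtb46 and Zbtb10. Rgs14, with a range of only 0.71, had the HSC marker Meis1 among its nearest (0.08). Rgs3, Rgs18 and Rgs19 also had narrow ranges of 0.83, 0.42 and 0.61, within which many genes lie close.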

How the data were processed

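HSC of 54 mice were measured by RNA-seq. Per the labels' protocols, cDNA was made with SMART-Seq v4 and libraries with Nextera XT, which keep neither strand nor molecular tags, so PCR copies count as reads. Per the submitters' processing notes, STAR 2.5.2b, mm10 and featureCounts of Subread 1.5.1 were used. Neither annotation, strand setting nor handling of multi-mapped reads is given in the sources used here. The deposited values are whole-number read counts per gene, per the file headers.

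Columns were assigned to groups by the names they carry; those that name 24 h fill the irradiated groups of that time, and no column names a single mouse of the labels. Library numbers follow the table's order. P-values measure the spread between mice. In R 4.3.3, edgeR 4.0.16 kept genes by a minimum count of 10 (14320 genes), scaled by TMM and fitted a robust quasi-likelihood model with 6 group means to all 54 libraries (48 residual degrees of freedom). A gene was called at a Benjamini-Hochberg adjusted p below 0.05 over all genes tested. SE is the absolute log2 fold change over the square root of F. CPM use TMM factors, summed marker CPM the total count alone, and log2 CPM a prior count of 3. DESeq2 1.42.0, another scaling, other sets of libraries and a replicate block served as alternatives. The code was tested on simulated counts. The members and lists were chosen with earlier results of these data known. All 9 members are named, and from the lists mostly the called genes with large changes, up to 3 per list and comparison. The spelling of 27 gene names had been turned into dates in the table, none of a member. The genes nearest in pattern to Rgs10 are not reported here.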

Additional observations from a re-analysis of the deposited data

Results flagged for a closer look

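Each member was examined in each group of 4 to 10 libraries for a library far from the others (Dixon's criterion at 95%), which covers 45 groups, and chance marks about 1 in 20 of them. In irradiated HSC with dmPGE2 at 24 h, a single library, library 5, stood far above the rest for Rgs1 (229 CPM), Rgs2 (171 CPM) and Rasd1 (164 CPM). In non-irradiated HSC with dmPGE2, Rgs10 had 1 library at 4.85 CPM, against a median of 1.76 CPM in that group.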

How the results depend on the processing

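Of 352 alternative values for single members, 327 kept their side of the threshold or, where untested, moved within the spread. Of these 13 changed sign and passed under neither setting, among them Rgs1 with dmPGE2 at 24 h (-0.233 without libraries 5, 6 and 7, -0.167 without 3, 5, 6 and 7, -0.086 in females). The rises of Rgs1 and Rgs2 with dmPGE2 without radiation passed under all 7 alternatives run for them (log2 fold change 1.28 to 1.34 and 1.55 to 1.64), as did the falls of Rgs2, Rgs14 and Rgs19 at 1 h after radiation.

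The comparison of dmPGE2 with vehicle at 24 h was the least stable. Against 3421 genes called, 1507 were called with only its own groups, 1815 with sex as a covariate, 854 without libraries 3, 5, 6 and 7, 1123 without libraries 5, 6 and 7, 346 in females and 953 in males. The RGS genes called were 0 in each of these, against 1. Rgs2 turned to -0.019, -0.051 and -0.136 without 4 libraries, without 3 and in females. For radiation with vehicle, 5 RGS genes passed at 1 h with only the 2 groups in the fit, against 3; Rgs16, one of these 5, is in the test mainly through the irradiated group. Genes called at 1 h numbered 1244 with the lower-numbered baseline libraries, against 2285, and 2 RGS genes passed at 24 h with the higher-numbered ones, against 8. The causes were not tested.

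Tags in the column names recur across groups, and the main fit does not use them. Same-tag libraries deviated together for dmPGE2 without radiation (mean correlation 0.197, other pairs -0.027) and with it at 1 h (0.166 and -0.024). For radiation under dmPGE2 these means were 0.161 and -0.023, and for radiation with vehicle at 1 h 0.076 and -0.01. For dmPGE2 at 24 h they were 0.006 and -0.002. The lowest same-tag correlation ran from -0.09 to 0.08 over the comparisons. Whether the tags pair the libraries cannot be settled from these values. With the tags as a replicate block, genes called were 2529 for dmPGE2 without radiation, 3421 for dmPGE2 with radiation at 1 h, 1245 at 24 h (0 RGS genes), 3547 for radiation with vehicle at 1 h and 95 for radiation under dmPGE2. At 1 h after radiation with vehicle, Rgs3 (-0.48, edgeR adjusted p = 0.00568) and Rasd1 (0.81, edgeR adjusted p = 0.00509) passed with the block. In 6 of 7, 6 of 8, 3 of 8, 3 of 8 and 6 of 8 libraries the closest match was its own tag, a hint from the data only. Radiation with vehicle at 24 h shares no tag with its baseline, so no such fit was made. Low counts limit Rgs16, and Rgs10 in part.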
